A study of Mus musculus with 4 samples.

Results

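The genes described here are the cytosolic ribosomal protein genes of MC38 cells, a mouse colon cancer cell line. They were chosen by symbol, as Rpl, Rps, Rplp and Rpsa names without a pseudogene ending, and by a mean over all libraries of at least 4 log2 CPM (CPM, a gene's reads scaled to a fixed library total). 71 genes met this rule, of 84 with such a symbol and 26322 genes listed, and 43 of them belong to the large ribosomal subunit and 28 to the small one. Each ribosome joins a small subunit, which reads the message, to a large subunit, which makes the peptide bond. Most ribosomal proteins are needed in equal number, and many of the messages begin with a C followed by a run of pyrimidines, the terminal oligopyrimidine (TOP) motif, through which the growth kinase mTOR controls their translation. Tumour cells that grow fast are known for a high output of these messages.

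The WT group (2 libraries) was MC38 cells electroporated with Cas9 and a non-targeting guide RNA, and the CbfbKO group (2 libraries) was MC38 cells electroporated with Cas9 and a guide against Cbfb, the gene of the partner subunit shared by the Runx transcription factors. Both groups thus carried Cas9 protein and a guide, and cells were taken 1 week or more after electroporation. No cloning step is described for these cells, so each library may mix edited and unedited cells, and in such bulk samples fewer cells with a message and less message per cell cannot be told apart. The study sequenced these libraries to compare the transcriptome with and without Cbfb.

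The libraries held 3189035 to 3907936 reads, which were counted at the 3′ end of messages, so levels were not divided by gene length. Cbfb itself, the targeted gene, had 295 and 285 reads in WT and 125 and 125 in CbfbKO, a log2 fold change of -1.27 (limma adjusted p = 1.76e-07), in the direction of the labels. Reads on ribosomal RNA, at the gene Rn45s, made up 13.9% and 13.1% of WT and 11.3% and 13.04% of CbfbKO libraries, so CbfbKO replicate 1 stood apart in this share. Of 11 epithelial and colon markers, 4 (Krt18, Vil1, Cdx1 and Cldn7) had no read in any library and the list held 28 reads in all 4 libraries together, with a summed level of 1.77 to 2.30 CPM per library, so the labelled colorectal origin has little marker support in these libraries. The list of 8 mesenchymal markers, most of it Vim, summed to 2529 and 2675 CPM in WT and 2311 and 2211 CPM in CbfbKO, and 1 of its 5 tested genes was called, the collagen gene Col3a1, which was lower (386 and 354 reads against 217 and 197, log2 fold change -0.90, limma adjusted p = 2.46e-06). Of the blood cell markers 6 of 8 had no read and the list held 4 reads, and of the endothelial markers 3 of 5 had no read and the list held 6 reads. The part of these marker levels in the results below was not tested.

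The starts of the genes that carry the comparison are shown first. RefSeq promoter entries (GRCm38.p6) were matched by symbol for 52 of the 71 genes, and each line gives 60 bases before the annotated start and 30 bases from it, 5′ to 3′ on the gene's strand. Capitals mark the longest run of pyrimidines (C or T) among the 20 bases on each side of the start, cut off at the edge of that window and the first one where runs are equally long. The first 4 lines belong to the genes that were lower in CbfbKO (Rpl19 has 2 annotated starts), the next 3 to the genes nearest to the threshold, and the last 3 to genes with positive (Rpl39 and Rps21) or near-zero (Rpl27a) fold changes. Rps24 and Rps21 have a further annotated start that is not shown.
Rpl15, chr14:18270957-18271046, minus strand: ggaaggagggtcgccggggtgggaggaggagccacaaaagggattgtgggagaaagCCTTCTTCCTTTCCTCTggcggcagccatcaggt
Rpl13, chr8:123102290-123102379, plus strand: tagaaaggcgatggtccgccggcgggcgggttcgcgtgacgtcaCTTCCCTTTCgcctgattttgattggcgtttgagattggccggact
Rpl19, chr11:98026650-98026739, plus strand: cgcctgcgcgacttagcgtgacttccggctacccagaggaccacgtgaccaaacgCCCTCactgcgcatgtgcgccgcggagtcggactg
Rpl19, chr11:98026864-98026953, plus strand: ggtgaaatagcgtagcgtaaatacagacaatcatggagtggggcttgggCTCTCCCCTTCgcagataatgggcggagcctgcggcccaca
Rps24, chr14:24490618-24490707, plus strand: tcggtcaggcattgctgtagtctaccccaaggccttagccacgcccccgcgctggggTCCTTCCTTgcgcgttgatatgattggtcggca
Rps6, chr4:86857338-86857427, minus strand: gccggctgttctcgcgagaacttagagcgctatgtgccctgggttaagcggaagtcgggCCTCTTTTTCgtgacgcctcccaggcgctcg
Rpl18, chr7:45718011-45718100, plus strand: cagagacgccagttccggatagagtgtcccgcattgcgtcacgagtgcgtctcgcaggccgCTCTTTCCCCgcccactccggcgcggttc
Rpl39, chrX:37085193-37085282, minus strand: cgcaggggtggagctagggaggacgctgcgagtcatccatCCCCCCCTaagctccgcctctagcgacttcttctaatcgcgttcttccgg
Rps21, chr2:180257319-180257408, plus strand: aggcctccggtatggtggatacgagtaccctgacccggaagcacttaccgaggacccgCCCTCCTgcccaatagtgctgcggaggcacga
Rpl27a, chr7:109519135-109519224, plus strand: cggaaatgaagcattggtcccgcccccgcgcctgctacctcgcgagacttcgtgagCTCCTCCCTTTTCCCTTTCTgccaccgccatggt

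The run spans 17 bases in Rpl15, 10 in Rpl13, 11 at the downstream start of Rpl19 and 5 at its upstream start. It spans 10 bases in Rps6 and Rpl18, 9 in Rps24, 8 in Rpl39, 7 in Rps21 and 20 in Rpl27a. The run of Rpl39 begins at the window edge and continues upstream of it, and an equally long run follows downstream of the start. Rpl27a, with the longest run shown, had a log2 fold change of -0.01, and Rpl15, with the next longest, was among the genes that were lower. These genes were picked for their fold changes, and the matched genes with and without a run are counted further on.

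The ribosomal protein genes were abundant and took nearly the same share of every library. Their levels ran from 4.18 log2 CPM for Rpl12, a protein at the base of the large subunit's stalk, to 11.82 for Rplp1, a protein of the stalk itself, a 200-fold range with a median of 9.81 and quartiles of 8.56 and 10.4. Since the level set which genes belong here, these values are a description. 29 genes lay at 10 log2 CPM or more, 22 at 9 to 10, 6 at 8 to 9 and 14 below 8. By mean level, all 14 genes below 8 were large-subunit genes and none of the 28 small-subunit genes was, with medians of 9.57 for the large and 10.01 for the small subunit. The level minimum shapes this contrast, since the small-subunit genes Rps23, Rps12, Rps7 and Rps27 fell under it. Among the highest were Rplp1, Rpl27a, Rps9, Rpl4, Rps14, Rpl32, Rpl37, Rpl34 and Rps3a1, and the top 10 held 34.6% of the reads on the 71 genes.

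**Figure D1:**
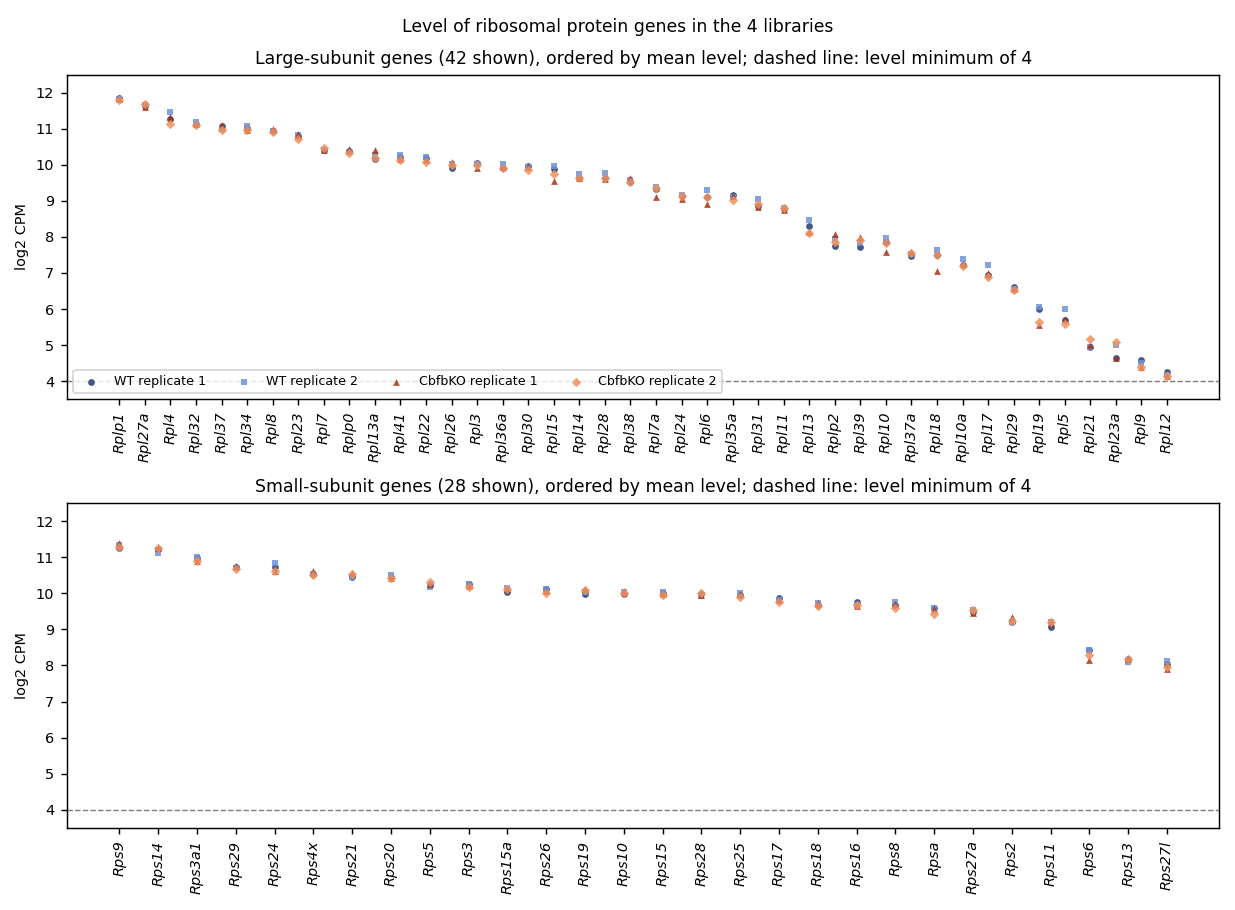
Level in log2 CPM of the genes, 1 large-subunit gene left out (vertical axis), with 1 point per library and the genes of each subunit ordered by mean level; the dashed line is the minimum of 4 in the rule. The 4 points of a gene lie close together next to the range between genes, and among genes above the minimum only large-subunit genes have a mean below 8.

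The rule's level minimum left out 13 genes with a matching symbol. Just inside it were Rpl12, with 63 and 58 reads in WT and 67 and 55 in CbfbKO, and Rpl9 at 4.47 log2 CPM, with 80 and 74 reads in WT and 80 and 65 in CbfbKO. Just outside were Rpl35 at 3.79, Rps23 at 3.54, Rps12 at 3.41 and Rpl36 at 3.25 log2 CPM. Rps27 was also low, at 2.08 log2 CPM with 12 and 11 reads in WT and 16 and 12 in CbfbKO, while its paralog Rps27l had 890 and 933 reads in WT and 926 and 787 in CbfbKO. The others below the minimum were Rpl27 at 2.86, Rps7 at 2.82, Rpl39l at 0.45, the processed pseudogenes Rpl32l, Rpl6l and Rps4l, and Rpl10l and Rpl3l, which had no read. Of the 13, 10 entered the test and none of them was called.

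Reads from ribosomal protein genes can match processed pseudogenes, of which the mouse genome has many. In the GENCODE M21 transcripts (GRCm38), the last 300 bases of each coding transcript were cut into all words of 75 bases, the read length, and each word was looked up in every other annotated gene. Of the 71 genes, 60 shared at least 1 such word with another gene and 11 shared none, with a median of 39.4% of words shared. Rpl36a shared 100% and still had 3287 and 3451 reads in WT and 3795 and 3055 in CbfbKO. Rpl35 and Rps12, below the level minimum, shared 95.6% and 85.02%. Across the 71 genes, level and shared percentage had a Spearman correlation of -0.34, given as a description, since genes are not independent and all points come from the same 4 libraries. How reads that matched several genes were counted is not given in the sources used here, so the levels of genes with many shared words are uncertain. The 33 listed genes with a ribosomal protein symbol and a pseudogene ending held 104 and 118 reads in WT and 142 and 96 in CbfbKO. Pseudogenes under other names are not in this count, so it does not give the reads on all pseudogenes.

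**Figure D2:**
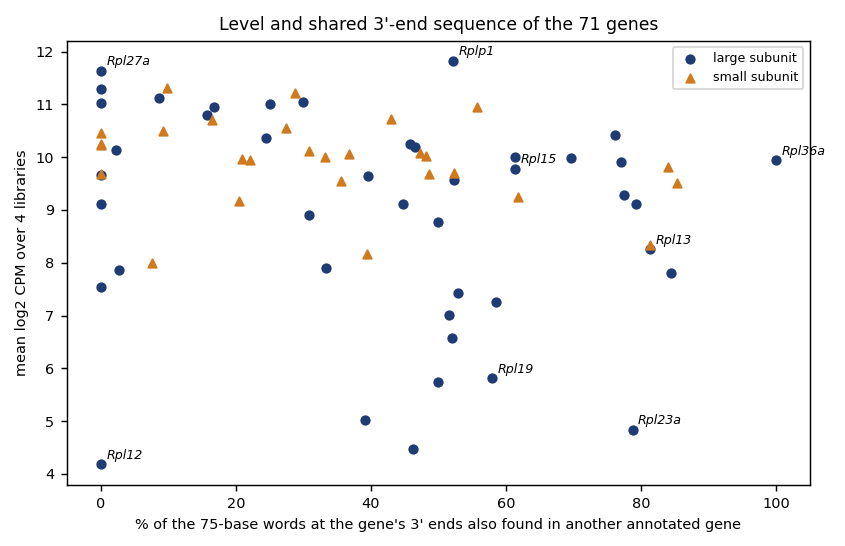
Mean level over the 4 libraries (log2 CPM, vertical axis) against the percentage of 75-base words at the 3′ ends of a gene that also occur in another annotated gene (horizontal axis), 1 point per gene and a symbol for each subunit. Genes with no shared word range from Rpl12 at the bottom to Rpl27a near the top, and Rpl19, Rpl15 and Rpl13 have 58.0%, 61.4% and 81.4% shared.

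The main comparison asked whether these genes differ between CbfbKO and WT cells. 3 of the 71 genes were lower in CbfbKO (limma on the log2 CPM values, Benjamini-Hochberg adjusted p under 0.05 over all 12207 genes tested), and none was higher. All 71 entered the test. Over all tested genes 1.25% were called lower and 1.57% higher, and over the 628 tested genes with a mean of at least 8 log2 CPM, where most of these genes lie, 2.07% were lower and 3.5% higher. At an unadjusted p under 0.05, 11 of the 71 were lower and 1 was higher (5.23% and 9.67% of all tested genes, 7.96% and 15.6% of the high-level genes). The 3 genes were Rpl15, Rpl13 and Rpl19, all of the large subunit.

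Rpl15, a large-subunit protein whose gene is mutated in some cases of Diamond-Blackfan anaemia, an inherited failure of red cell production, had 9.88 and 9.96 log2 CPM in WT and 9.54 and 9.75 in CbfbKO (3190 and 3320 against 2909 and 2750 reads). Both CbfbKO libraries lay below both WT libraries, with replicate 1 the lowest. The log2 fold change was -0.27 (SE 0.063, 95% interval -0.40 to -0.14, n = 2 per group, limma adjusted p = 0.0136), which puts CbfbKO at 82.9% of the WT level. In GENCODE M21 (GRCm38) Rpl15 spans chr14:18267823-18271391.

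Rpl13, a protein of the large subunit, had 8.30 and 8.47 log2 CPM in WT and 8.14 and 8.11 in CbfbKO (1071 and 1183 against 1097 and 880 reads). The CbfbKO libraries were close to each other, and the gap to the nearer WT library was of the size of the gap between the WT libraries. The log2 fold change was -0.26 (SE 0.070, 95% interval -0.41 to -0.12, limma adjusted p = 0.0376), or 83.2% of WT. In the same annotation Rpl13 spans chr8:123102350-123105244.

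Rpl19, a protein near the rim of the exit tunnel that also reaches over to the small subunit, had 5.997 and 6.07 log2 CPM in WT and 5.54 and 5.65 in CbfbKO (215 and 222 against 180 and 158 reads). The gap between the groups was larger than that between replicates of either group. It was the lowest fold change of the 71 genes, -0.44 (SE 0.116, 95% interval -0.68 to -0.20, limma adjusted p = 0.0377), or 73.8% of WT. Rpl19 spans chr11:98026710-98030492.

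None of these 3 calls held with each library left out in turn. Without WT replicate 1 only Rpl13 was called, and without WT replicate 2 or either CbfbKO library none was, with fold changes from -0.38 to -0.17 for Rpl15, -0.35 to -0.18 for Rpl13 and -0.49 to -0.39 for Rpl19 over all 17 settings. All 3 calls were also lost with quantile normalization, without the mean-variance trend and without the filter on low values. Without the trend no gene at all was called, so that loss was not particular to these 3. A fit with a library left out rests 1 group on a lone library, which by itself can lose calls. The 3 calls were kept, with others added, with median centring and with ribosomal RNA out of the totals (5 lower genes each). They were also kept with voom on library totals and with a minimum of 5 CPM (6 each) and with voom and TMM scaling (13). Their shared 3′-end words (61.4%, 81.4% and 58.0%, with 16, 8 and 8 pseudogenes) place all 3 among the 24 genes with over 50% shared. The median log2 fold change was -0.06 for those 24 genes, -0.02 for the 36 with up to 50% shared and -0.05 for the 11 with none. The part of read sharing in the calls was not tested.

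**Figure D3:**
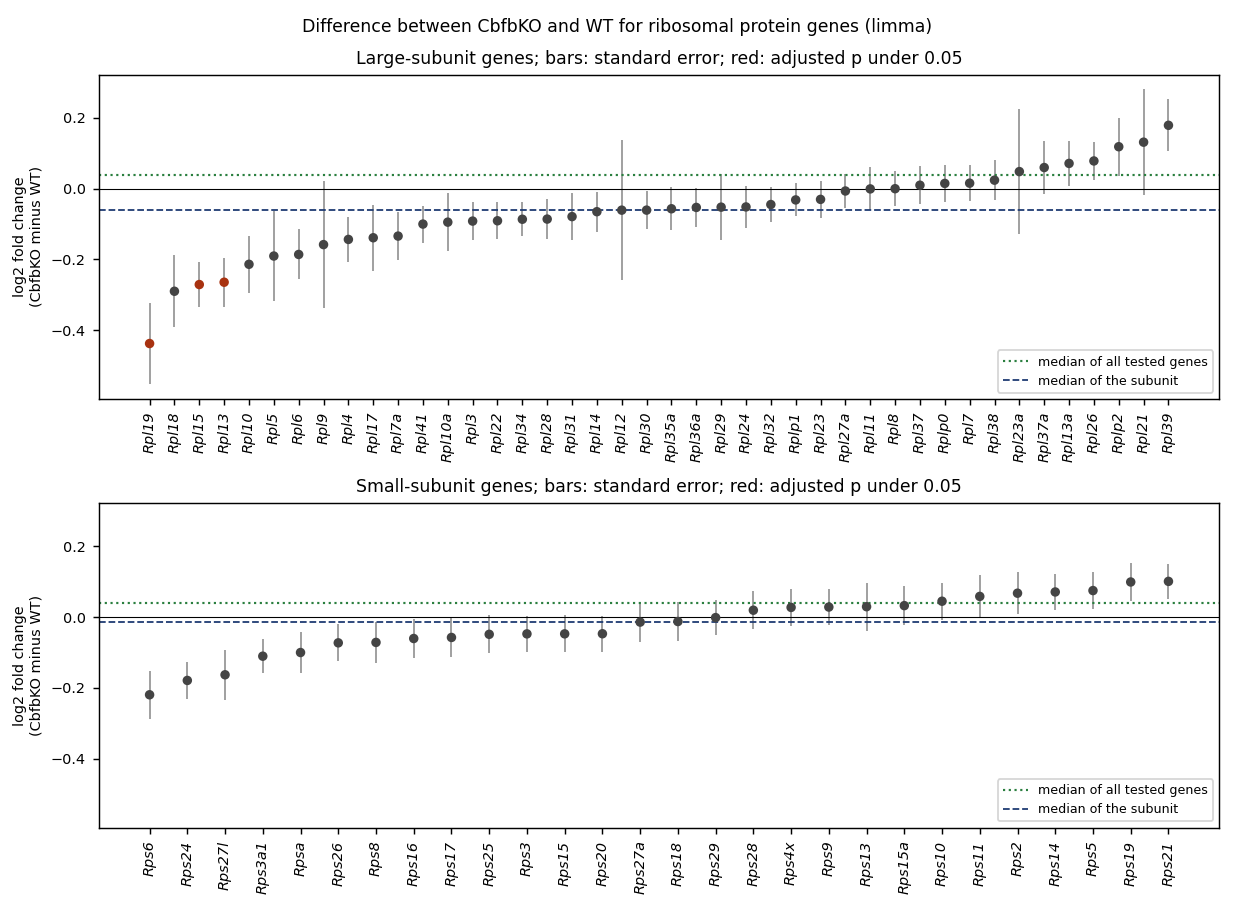
Log2 fold change of CbfbKO minus WT for each gene, 1 large-subunit gene left out (vertical axis) with its limma standard error, ordered within each subunit; red marks an adjusted p under 0.05, the dashed line the subunit's median and the dotted line the median of all tested genes. Rpl19, Rpl15 and Rpl13 are marked at the left of the large subunit, no small-subunit gene is marked, and most points lie between -0.2 and 0.2.

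Other genes with low fold changes did not pass the threshold. Rpl18 had a lower fold change than Rpl15 and Rpl13, and those of Rpl10, Rpl5 and Rpl6 lay between Rps6 and Rps24. Rpl18, a large-subunit protein, had 7.51 and 7.64 log2 CPM in WT and 7.06 and 7.50 in CbfbKO, a fold change of -0.29 (SE 0.101, limma adjusted p = 0.148). Its fold change was -0.07 without CbfbKO replicate 1 and -0.51 without CbfbKO replicate 2, and CbfbKO replicate 2 was level with WT replicate 1. Rps6, the small-subunit protein phosphorylated by the S6 kinases downstream of mTOR, had 8.44 and 8.44 in WT and 8.15 and 8.30 in CbfbKO, a fold change of -0.22 (SE 0.068, limma adjusted p = 0.0884), which was -0.15 without CbfbKO replicate 1. Rps24, a small-subunit protein of the Diamond-Blackfan list that was singled out after its values were seen, had 10.74 and 10.84 in WT and 10.61 and 10.61 in CbfbKO, a fold change of -0.18 (SE 0.051, limma adjusted p = 0.0601). For both Rps6 and Rps24 the CbfbKO libraries lay under the WT libraries.

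At the other end, Rpl39, a small protein that lines the exit tunnel and is encoded on the X chromosome, had 7.71 and 7.84 log2 CPM in WT and 7.995 and 7.91 in CbfbKO, a fold change of 0.18 (SE 0.074, limma adjusted p = 0.233), which was 0.11 without WT replicate 1. Rpl21 (103 and 101 reads in WT, 123 and 112 in CbfbKO) had 0.13, which was 0.05 without CbfbKO replicate 2 and 0.21 without CbfbKO replicate 1. Rplp2 had 0.12, which was 0.00002 without CbfbKO replicate 1 and 0.24 without CbfbKO replicate 2. The small-subunit genes Rps21, with 10.44 and 10.45 in WT and 10.57 and 10.52 in CbfbKO, and Rps19, the gene most often mutated in Diamond-Blackfan anaemia, with 9.99 and 10.03 in WT and 10.13 and 10.09 in CbfbKO, each had 0.10. None of these 5 passed the threshold. The CbfbKO libraries lay above the WT libraries for each of them but Rplp2.

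**Figure D4:**
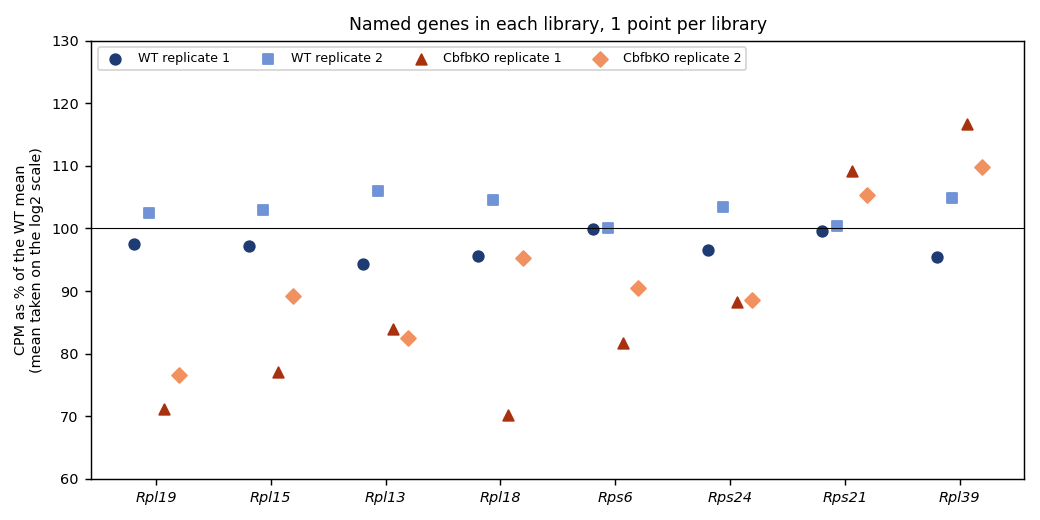
CPM of 8 named genes in each library as a percentage of the WT mean (vertical axis, mean taken on the log2 scale), with 1 symbol per library. Both CbfbKO points lie below both WT points for Rpl19, Rpl15, Rpl13, Rpl18, Rps6 and Rps24 and above them for Rps21 and Rpl39, and Rpl18 has the widest gap between its CbfbKO points.

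Most of the genes differed little. The median size of the log2 fold change, regardless of sign, was 0.068, next to a median gap between replicates of 0.064 in WT and 0.069 in CbfbKO. 65 of the 71 were under 0.2 in size, and for 69 the 95% interval lay within 0.5 on either side of no difference. The median half-width of that interval was 0.115, so differences of a few percent could not be seen at this depth with 2 libraries a group. For 20 genes the difference between group means was larger than both replicate gaps, as it was for 32.1% of all tested genes and 41.1% of the high-level genes.

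As a group, the genes leaned downward by less than 0.1. 48 had a negative and 23 a positive fold change, with a median of -0.05, while the median of all tested genes was 0.04 and that of the 628 high-level genes 0.02. Both CbfbKO libraries lay below both WT libraries for 29 of the 71 (16.8% of all tested genes, 21% of the high-level genes) and above them for 8 (27.4% and 31.7%). Among large-subunit genes 32 of 43 were negative with a median of -0.06, 18 were below and 3 above. Among small-subunit genes 16 of 28 were negative with a median of -0.01, 11 were below and 5 above. This median was -0.040 without CbfbKO replicate 1, -0.029 without WT replicate 1, -0.036 with each library centred on its median and -0.051 with voom and TMM scaling, and that of the large subunit was -0.084 with centring, -0.095 with TMM and -0.032 without WT replicate 2. The subunits were not tested against each other.

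The summed share of reads showed the same small size. The 71 genes held 7.14% and 7.31% of the reads in WT and 7.13% and 6.997% in CbfbKO, so CbfbKO replicate 1 was level with WT replicate 1. The large subunit held 4.02% and 4.16% in WT and 3.98% and 3.92% in CbfbKO, and the small subunit 3.12% and 3.15% in WT and 3.14% and 3.08% in CbfbKO. The ratio of large- to small-subunit reads was 1.29 and 1.32 in WT and 1.27 and 1.28 in CbfbKO. With the Rn45s reads left out of the totals the share was 8.29% and 8.42% in WT and 8.04% and 8.05% in CbfbKO, and the groups were then apart. These shares are given as a description, with no test. The log2 ratio of CbfbKO to WT shares was -0.033, and it was -0.051 without WT replicate 1, -0.020 without CbfbKO replicate 2 and -0.015 without WT replicate 2. This ratio was -0.056 with each library centred on its median and -0.070 with TMM scaling.

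**Figure D5:**
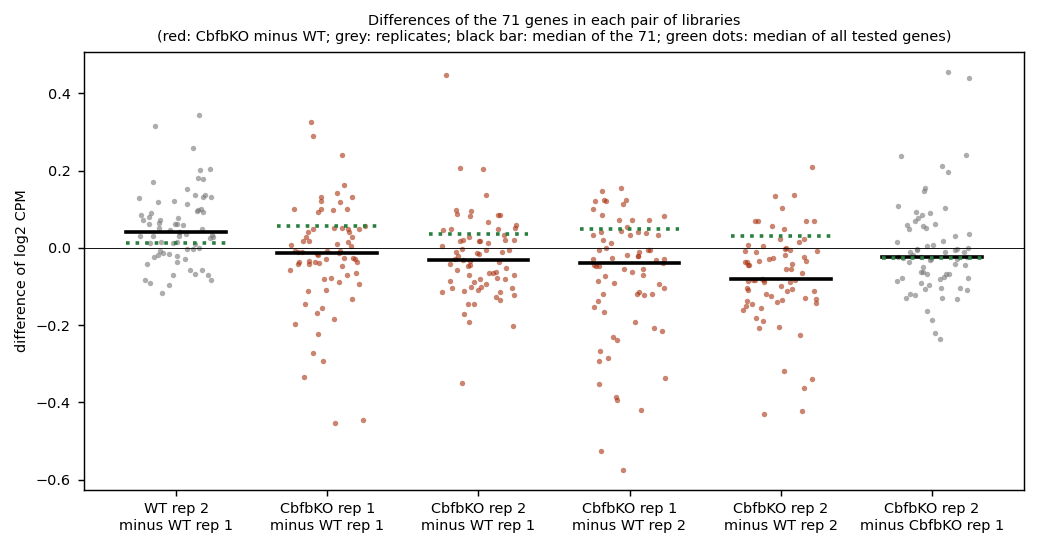
Difference of log2 CPM of each of the 71 genes (vertical axis) for every pair of libraries, red for CbfbKO minus WT and grey for replicates; black bars are medians of the 71 genes and green dots medians of all tested genes. The 4 red medians run from -0.08 to -0.01, and the replicate pairs stand at 0.04 (WT) and -0.02 (CbfbKO).

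Pairs of libraries put a scale on this. The median difference over the 71 genes was -0.01 and -0.03 for CbfbKO replicates 1 and 2 against WT replicate 1, and -0.04 and -0.08 against WT replicate 2. The WT replicates differed from each other by 0.04 and the CbfbKO replicates by -0.02. Relative to the median of all tested genes in the same pair, the median of the 71 genes lay at -0.069 and -0.069 against WT replicate 1, at -0.090 and -0.111 against WT replicate 2, and at 0.027 and 0.003 between the WT and the CbfbKO replicates. Relative to the median of the 628 high-level genes they lay at -0.059 and -0.038, at -0.073 and -0.072, and at 0.026 and 0.021. WT replicate 2 had the highest value of the 4 libraries for 32 genes and CbfbKO replicate 2 the lowest for 32. Without WT replicate 2 the median over the 71 genes was -0.02, so the lean was smaller without this library.

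The genes were then read by their place in the ribosome, from lists made with textbook knowledge. In the stalk that recruits elongation factors, Rplp0 had a log2 fold change of 0.01, Rplp1 -0.03 and Rplp2 0.12. Of the proteins that carry the 5S ribosomal RNA into the large subunit and can bind the p53 regulator Mdm2, Rpl11 stood at -0.0008 and Rpl5 at -0.19 (173 and 212 reads in WT, 206 and 150 in CbfbKO, limma adjusted p = 0.534). None of these 5 passed the test, none had an unadjusted p under 0.05, and the Rpl5 libraries overlapped. Rpl5 stood at -0.35 without WT replicate 1 and at -0.03 without WT replicate 2.

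Along the peptide exit tunnel and its rim, 1 of 8 genes was lower, Rpl19, and none was higher (1.25% and 1.57% of all tested genes), with a median of -0.05. In the list for the peptidyl transferase centre, which also holds Rpl10a, a protein outside it, 0 of 4 tested genes were called. In this list Rpl10, a late-joining protein, stood at -0.21 (limma adjusted p = 0.182, -0.33 to -0.10 over the 17 settings) and Rpl8 at -0.0002. Along the decoding and message path of the small subunit 0 of 9 were called and the median was 0.02. On the initiation and signalling face 0 of 6 were called, among them Rpsa, also known as a laminin receptor, at -0.10 (-0.04 without CbfbKO replicate 2, -0.16 without CbfbKO replicate 1) and Rps27a, made as a fusion with ubiquitin, at -0.01. Of the 18 genes listed for Diamond-Blackfan anaemia, 14 of which are among the 71, 1 was lower (Rpl15) and none was higher, next to the same 1.25% and 1.57% of all tested genes. None of the 4 X-linked genes was called. At an unadjusted p under 0.05, met by 5.23% of all tested genes as lower and 9.67% as higher, the Diamond-Blackfan list had 3 lower genes, the exit tunnel list 2 lower and 1 higher, the peptidyl transferase and initiation lists 1 lower each, the decoding list 0, and the X-linked list 1 lower (Rpl10) and 1 higher (Rpl39).

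The genes were also read by their level. The 29 genes at 10 log2 CPM or more had a median of -0.001, with none called. The 28 at 8 to 10 had a median of -0.06, with Rpl15 and Rpl13 called, and the 14 below 8 had a median of -0.08, with Rpl19 called. Across the 71 genes fold change and level had a Spearman correlation of 0.22, as a description. Of the highest genes of each subunit, Rps9, a small-subunit protein at the message entry, stood at 0.03 and Rplp1 at -0.03. Rplp1 was lower with quantile normalization (-0.16, limma adjusted p = 0.0162), and its adjusted p was 0.115 to 1 in the other settings.

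The promoters shared sequence features that the rule did not use. A pyrimidine run of at least 8 bases within 20 bases of the start was found in 26 of the 52 matched genes (50%), against 18.4% of 27025 genes in the promoter table. A start base C followed by at least 4 pyrimidines, the form of a TOP message, was found in 11 (21.2%, against 3.01%). Searched on both strands of the 250 bases before and 50 after the start, CTTTCC was present in 53.8% (29.3% of all, 30.6% of tested genes), and CCGGAAG, the core bound by ETS factors such as GABP, in 44.2% (9.93% of all, 21.1% of 9324 tested genes).

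AAGATGGC, a YY1 motif, was present in 7.69% (3.19% of all, 5.58% of tested genes) and TATAAA in 11.5% (15.7% of all, 8.55% of tested genes). TGTGGT or TGCGGT, letters that RUNX factors bind, were present in 9 of the 52 (17.3%), against 25.03% of all genes and 24.0% of tested genes. These letters were not found in the windows of Rpl15, Rpl13 or Rpl19. The median log2 fold change was -0.05 for the 9 genes with these letters and -0.06 for the 43 without. With a pyrimidine run of at least 8 it was -0.08 for 26 genes, and without such a run it was -0.05 for 26 genes. Such a run was present in 50% of the 52 genes and in all 3 called ones, in Rpl19 only at its downstream start. The part of the run in the calls was not tested. A match of letters is a description and not a binding site.

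Genes that work with the ribosome but lie outside the rule are given for comparison. Of 12 further ribosomal genes listed, 7 were tested and none was called. Rack1, a scaffold on the small subunit, had 0.14 (limma adjusted p = 0.166) and Fau, which encodes a small-subunit protein, -0.26 (limma adjusted p = 0.230). Of 21 TOP messages that do not encode ribosomal proteins none was called, 14 were negative and the median was -0.04, with 5 lower and 0 higher at an unadjusted p under 0.05 (5.23% and 9.67% of all tested genes). Among these, chosen after their values were seen, Vim had -0.18 (limma adjusted p = 0.0538), Gas5, a host gene of small nucleolar RNAs, -0.20 (limma adjusted p = 0.0993) and Pabpc1, the poly(A)-binding protein, -0.15 (limma adjusted p = 0.119).

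Regulators of these messages also did not pass the test. Of 12 genes of TOP translation control, with mTOR and its complex, the S6 kinases and Larp1, none was called and the median was -0.001. Of 10 transcription factors linked to ribosomal protein promoters none was called, and Myc, with 103 and 111 reads in WT and 89 and 79 in CbfbKO, had -0.41 (limma adjusted p = 0.2004). Of 15 genes listed as chaperones and escorts of ribosomal proteins, a loose list that also holds other assembly factors, none was called, with a median of 0.03. At an unadjusted p under 0.05 (5.23% of all tested genes lower, 9.67% higher) the first list held 0 genes, the factors 1 lower (Myc) and the chaperones 1 lower (Nap1l1) and 1 higher (Aamp). Of 78 mitochondrial ribosomal proteins, which build the separate ribosome of that organelle, Mrps28 was lower (-0.80), none was higher and the median was 0.03, with 3 lower and 3 higher at an unadjusted p under 0.05. That 1 call stands beside 1.25% of all tested genes called lower.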

How the data were processed

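The data were 3′ mRNA libraries (QuantSeq kit, reads of 75 bases) of MC38 cells, 2 WT and 2 CbfbKO, grouped and numbered by their labels. Nothing says that replicates were separate cultures, so the spread in the test is that between these libraries. The test also draws the variance of each gene toward that of genes of like level. A p-value thus does not rest on the libraries' spread for that gene alone. Per the submitters' processing notes, reads were trimmed with cutadapt 1.9, aligned to mm10 with HISAT2 2.1.0 and counted with featureCounts 2.0.1 (the methods name another release); the treatment of strand and of reads matching several genes is not given in the sources used here. The authors deposited log2 CPM values, scaled to each library's total, with a prior count of 2 before the log.

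Whole reads were recovered from these values (at least 99.99% of values above the floor within 0.1 of a whole number) to give depth, 1 read being 0.256 to 0.314 CPM. The main test used the deposited values; recovered reads gave read numbers, shares of reads and the voom, totals and prior-count alternatives. The test was limma 3.58.1 (R 4.3.3) on the deposited log2 values, with eBayes and a trend on mean level. It covered the 12207 genes that reached 0 on the log2 CPM scale in 2 or more libraries; p-values were two-sided and Benjamini-Hochberg adjusted with a threshold of 0.05. It was tested on simulated data in which the changes set were larger than those of the 3 called ribosomal protein genes. Changes of the size seen here were thus not covered. Fold changes are on the log2 scale with the prior included, which understates changes of low genes. Intervals are at 95%.

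The members and lists were chosen with earlier results of these data known. Genes named are those past the threshold, the 5 highest and 5 lowest fold changes, the highest and lowest level in each subunit, the stalk and 5S lists, Rpsa, Rps6, Rps27a and Rps27l, those next to the level minimum, and any listed gene past the threshold. Other genes named with a value (among them Rps24, Rpl10, Rpl8, Rpl27a, Rpl36a, Rack1, Fau, Myc, Vim, Gas5, Pabpc1, Nap1l1 and Aamp) were chosen after their values were seen. Rpl2, Gnb2l1 and Rpl26l1 had no row under these symbols. Some genes are counted here but not reported by name. Alternatives were other scalings, filters, variance models, prior count and threshold, the replicate number as a block and each library left out.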

Additional observations from a re-analysis of the deposited data

How the results depend on the processing

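The count of ribosomal protein genes called lower (3) moved with most choices, while none was called higher in any setting. It was 5 with each library centred on its median and with the ribosomal RNA genes out of the totals (Rps24 and Rps6 added), 13 with voom and TMM scaling of recovered reads, 6 with voom on library totals and with a minimum of 5 CPM, and 1 with quantile normalization (Rplp1) or a prior count of 0.5 (Rpl15). It was 0 without the mean-variance trend (limma called no gene at all, 1461 genes at an unadjusted p under 0.05), without a low-value filter (26322 genes tested) and at an adjusted p under 0.01. It was 0 to 1 with each library left out, where 1 group rests on a lone library assumed to vary like the others; without either CbfbKO library limma called no gene at all (1104 and 1169 at an unadjusted p under 0.05). The cause was not tested.

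The median log2 fold change of all 71 genes (-0.05) was -0.071 with median centring and with ribosomal RNA out, -0.084 with TMM, and -0.051 to -0.020 with each library left out. That of the large subunit (-0.06) was -0.084 with centring and with ribosomal RNA out, -0.095 with TMM, and -0.073 to -0.032 with each library left out. That of the small subunit (-0.01) was -0.036 with centring and with ribosomal RNA out, -0.034 with quantile normalization, -0.051 with TMM, and -0.040 to -0.009 with each library left out. The log2 ratio of summed shares (-0.033) was -0.056 with centring and with ribosomal RNA out, -0.070 with TMM, and -0.051 (without WT replicate 1) to -0.015 (without WT replicate 2) with each library left out. Rpl15, Rpl13 and Rpl19 had a negative fold change in all 17 settings and were called in 10, 10 and 9 of them. Over all tested genes 55.7% of calls were higher, 48.4% with median centring, 48.2% with ribosomal RNA out, 47.0% with quantile normalization, 42.8% with TMM, 59.8% with the replicate block and 3.64% (2 of 55 calls) without a low-value filter.

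With the replicate number as a block 4 were called lower (Rpl18 added), of 535 calls over all genes against 345. Rpl18 was called in 4 of the 17 settings, the others being voom with TMM scaling, voom on library totals and the minimum of 5 CPM. The labels do not say whether the numbers pair the libraries. Same-numbered libraries deviated with a correlation of -0.004 over all tested genes. Their median level was 4.40 log2 CPM, where counting noise is large, so this value cannot decide it. The block result is not read further. With 2 libraries a group at this depth, genes near the level minimum rest on 55 to 80 reads a library.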
